A study of Mus musculus with 4 samples.

Results

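The calsyntenins, the amyloid precursor protein (APP) family and subunits of kinesin-1 were followed across RNA sequencing libraries of Calu-KO and WT mouse cells. They were taken by gene symbol from the deposited expression table and comprised 9 of its 54532 genes, namely Clstn1, Clstn2 and Clstn3, App, Aplp1 and Aplp2, and Klc1, Klc2 and Kif5b. The set was chosen by these symbols with the FPKM values of Calu-KO and WT already known, so their differences are given as a description without a test. The cells are labelled as primary lung fibroblasts of mouse. The 2 Calu-KO libraries carry the genotype label Calu-KO and the letters KD in their titles, and the 2 WT libraries carry the label Calu-WT and the letters NC. Calumenin, the product of Calu, binds calcium in the lumen of the endoplasmic reticulum and Golgi. The labels do not say how Calu was targeted, nor whether the 2 libraries of a genotype stem from different mice or dishes. The SEs and p-values below therefore measure only the spread between these libraries, which may be technical.

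Calsyntenins are type I membrane proteins of the cadherin superfamily that travel in transport vesicles. Their cytoplasmic tails bind the kinesin light chains, which couple cargo to the heavy chains that walk along microtubules. APP and its relatives are also type I membrane proteins, move with kinesin-1, and, like calsyntenins, are cut by alpha-secretases and then by gamma-secretase. The genes are best known from neurons, while App and Aplp2 are expressed in most tissues.

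Levels are in FPKM (fragments per kilobase of gene length, scaled to the size of the library), as deposited. Recovered reads came to 16510048 and 16038560 in the Calu-KO libraries and to 15635448 and 16033535 in the WT libraries. Calu stood at 14.9 and 10.9 FPKM in Calu-KO replicates 1 and 2, against 178 and 177 FPKM in WT replicates 1 and 2. Correlations of log2 expression with the WT libraries across genes were 0.938 and 0.939 for Calu-KO replicate 2 and 0.964 each for Calu-KO replicate 1. Within groups the correlation was 0.966 for the Calu-KO pair and 0.989 for the WT pair. Calu-KO replicate 1 was thus about as close to the WT libraries as to Calu-KO replicate 2. Calu-KO replicate 2 also had more mitochondrial reads, 4.0% of its total, where the remaining libraries had 2.43% to 2.53%. Of 10 fibroblast markers 7 reached 1 FPKM in some library, whereas Thy1 stayed below 1 FPKM and Dcn and Lum had no reads in any library. None of 10 neuronal markers reached 1 FPKM, with summed levels of 0 to 0.138 FPKM in Calu-KO and 0.0929 to 0.238 FPKM in WT. Of 8 glial and Schwann cell markers only S100b did. Their sum was 5.57 to 10.5 FPKM in Calu-KO and 14.9 to 15.2 FPKM in WT, most of it S100b. Macrophage markers (2 of 6 reached 1 FPKM, Adgre1 and Mrc1 at 0) summed to 4.17 and 4.12 FPKM in Calu-KO and 11.1 and 12.2 FPKM in WT, and mesothelial markers (2 of 6) to 25.4 and 22.6 FPKM in Calu-KO and 35.9 and 32.7 FPKM in WT. Pericyte and smooth muscle markers (2 of 6, Cnn1 and Rgs5 at 0) summed to 48.6 and 58.2 FPKM in Calu-KO and 39.1 and 37.4 FPKM in WT. Single markers moved more than these sums. Mcam, a pericyte marker, rose to 18.4 and 13.0 FPKM in Calu-KO, against 2.42 and 2.77 FPKM in WT (adjusted p = 0.0251, limma), while Cspg4, which makes up most of that sum, did not pass (adjusted p = 0.892, limma). Krt8, a mesothelial marker, fell to 0.0604 and 0.0699 FPKM in Calu-KO, against 2.75 and 2.28 FPKM in WT (adjusted p = 0.0274, limma). Lyz2, a macrophage marker, fell to 1.71 and 1.25 FPKM in Calu-KO, against 6.59 and 7.23 FPKM in WT (adjusted p = 0.0254, limma). Epithelial and endothelial markers stayed at sums of 0.131 to 0.386 FPKM in Calu-KO and 0.220 to 1.11 FPKM in WT. The part of these markers, and of the library that stood apart, in the results below was not tested.

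The promoters of the 3 calsyntenin genes are shown because these paralogs had different levels in the same cells: Clstn1 was lower in Calu-KO, Clstn3 had close levels in both groups and Clstn2 had no reads. Each sequence is 300 bases from RefSeq (GRCm38.p6, the build called mm10), 5′ to 3′ on the strand of the gene, from 250 bases before the transcription start. They are Clstn1 at chr4:149586218-149586517 (plus strand), Clstn2 at chr9:98033118-98033417 (minus strand) and Clstn3 at chr6:124464735-124465034 (minus strand). Capitals mark matches, on either strand, to the CCAAT box (CCAAT) and the GC box (GGGCGG).
Clstn1: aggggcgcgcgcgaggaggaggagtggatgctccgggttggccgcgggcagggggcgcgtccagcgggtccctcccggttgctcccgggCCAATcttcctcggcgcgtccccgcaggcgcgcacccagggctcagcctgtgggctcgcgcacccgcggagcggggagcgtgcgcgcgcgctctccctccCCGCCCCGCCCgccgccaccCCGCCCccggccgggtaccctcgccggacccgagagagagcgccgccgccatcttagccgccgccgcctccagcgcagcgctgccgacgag
Clstn2: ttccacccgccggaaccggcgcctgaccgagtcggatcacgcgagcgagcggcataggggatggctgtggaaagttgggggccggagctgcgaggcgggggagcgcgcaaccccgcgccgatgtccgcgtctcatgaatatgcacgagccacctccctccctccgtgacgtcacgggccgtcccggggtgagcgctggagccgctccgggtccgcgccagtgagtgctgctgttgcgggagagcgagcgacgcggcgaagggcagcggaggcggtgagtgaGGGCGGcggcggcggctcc
Clstn3: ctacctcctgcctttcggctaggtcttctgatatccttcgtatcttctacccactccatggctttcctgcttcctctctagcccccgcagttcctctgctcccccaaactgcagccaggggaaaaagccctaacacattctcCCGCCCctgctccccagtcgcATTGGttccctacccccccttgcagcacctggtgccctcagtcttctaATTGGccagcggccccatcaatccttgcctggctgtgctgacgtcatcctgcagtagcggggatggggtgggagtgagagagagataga

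The Clstn1 window held 48 CpG dinucleotides and 79.7% G and C, the Clstn2 window 43 and 72.7%, and the Clstn3 window 8 and 58.3%. The median over 32851 mouse promoter windows was 7 CpG and 52.7%. Clstn1 had 1 CCAAT box and 3 GC boxes, of which 2 overlapped, Clstn2 had 1 GC box, and Clstn3 had 2 CCAAT boxes and 1 GC box. A CCAAT box occurred in 37.4% and a GC box in 35.7% of all windows. The TATA box TATAAA (13.6% of all windows), the E-box CACGTG (7.15%) and the endoplasmic reticulum stress element, which is CCAAT and CCACG with any 9 bases between and so contains the CCAAT box (0.119%), searched on both strands, had no match in the 3 windows printed. A second annotated Clstn3 window had no match to any of the 5 motifs. A match is a description of letters and not a site.

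Clstn1 (ENSMUSG00000039953, chromosome 4, 149586468 to 149648899, mm10), which encodes calsyntenin-1, stood at 6.41 and 6.30 FPKM in Calu-KO replicates 1 and 2, against 34.8 and 32.7 FPKM in WT replicates 1 and 2. Both Calu-KO libraries lay far below both WT libraries, and the 2 Calu-KO libraries were nearly equal. These levels rested on 505 and 429 reads in Calu-KO and 2660 and 2529 reads in WT. The mean was 6.35 ± 0.0772 FPKM in Calu-KO and 33.8 ± 1.55 FPKM in WT (SD, n = 2 each), 5.31-fold lower. On the scale of log2(FPKM + 1), which understates the change of low genes, the change was -2.24 ± 0.11 (SE). Ranked from the most negative log2 change, Clstn1 stood 19th among the 11885 genes tested. In bulk RNA, fewer cells that express a gene and less RNA per cell cannot be told apart.

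Clstn3 (ENSMUSG00000008153, chromosome 6), which encodes calsyntenin-3, stood at 5.57 and 5.29 FPKM in Calu-KO, against 5.40 and 5.40 FPKM in WT. Its groups overlapped, and the log2 change was 0.01 ± 0.11 (SE). Clstn2 (ENSMUSG00000032452, chromosome 9), the calsyntenin-2 gene, had 0 reads in all 4 libraries. A count of 0 allows up to 3 reads, here 0.0312 to 0.0361 FPKM in Calu-KO and 0.0317 to 0.0322 FPKM in WT, a limit that covers counting error only.

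Summed over the family, calsyntenin levels were 12.0 and 11.6 FPKM in Calu-KO and 40.2 and 38.1 FPKM in WT, 3.32-fold lower in Calu-KO. Clstn1 made up 53.5% and 54.3% of the sum in Calu-KO, against 86.6% and 85.8% in WT. The family was thus split nearly evenly between Clstn1 and Clstn3 in Calu-KO, whereas Clstn1 dominated in WT.

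App (ENSMUSG00000022892, chromosome 16, 84949685 to 85173766), which encodes the precursor of the amyloid-beta peptide, stood at 25.8 and 27.3 FPKM in Calu-KO, against 35.5 and 35.7 FPKM in WT. Both Calu-KO libraries were lower than both WT libraries, with a mean of 26.6 ± 1.10 FPKM in Calu-KO and 35.6 ± 0.121 FPKM in WT (SD, n = 2 each), 0.746 of the WT level. The log2 change was -0.41 ± 0.10 (SE). Genes of chromosome 16 were also lower as a group. Its 354 tested genes had a median log2 change of -0.24 (-0.28 in Calu-KO replicate 1 and -0.21 in replicate 2). Their quartiles were -0.46 and -0.03, and App lay between these. Of them 78.5% were negative, against a median of 0.01 and 48.4% on the other chromosomes. The part of this in the App values was not tested.

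Aplp2 (ENSMUSG00000031996, chromosome 9), the broadly expressed relative amyloid precursor-like protein 2, stood at 72.9 and 77.7 FPKM in Calu-KO, against 65.2 and 67.9 FPKM in WT. Both Calu-KO libraries were higher, by a mean log2 change of 0.18 ± 0.11 (SE). Aplp1 (ENSMUSG00000006651, chromosome 7), a relative known mainly from neurons, stood at 3.84 and 4.74 FPKM in Calu-KO, against 5.51 and 5.59 FPKM in WT. Both Calu-KO libraries were lower (log2 change -0.31 ± 0.14, SE), although only 196 and 209 reads in Calu-KO and 272 and 280 reads in WT stood behind these levels.

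Both the sum and the make-up of the APP family depend on the length assigned to App. With the deposited lengths the family summed to 106 ± 5.14 FPKM in Calu-KO and 108 ± 2.08 FPKM in WT (SD, n = 2 each), and the groups overlapped. Principal transcript lengths, an alternative chosen after the values were seen, rescaled the same reads, including any from outside that transcript. The sums were then 228 and 244 FPKM in Calu-KO, against 258 and 263 FPKM in WT. These groups did not overlap, and the Calu-KO mean was 0.906 of the WT mean. With the deposited lengths App took 25.2% and 24.9% of the sum in Calu-KO, against 33.4% and 32.7% in WT, and Aplp2 took 71.1% and 70.8% in Calu-KO, against 61.4% and 62.2% in WT. With principal transcript lengths App took 46.2% and 45.9% in Calu-KO, against 56.4% and 55.5% in WT, and Aplp2 took 51.6% in each Calu-KO library, against 40.9% and 41.7% in WT. The share of App was thus lower in Calu-KO under either length, while App was the larger part of the family in WT under the principal lengths only.

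Klc1 (ENSMUSG00000021288, chromosome 12), the kinesin light chain that binds calsyntenin-1, stood at 23.8 and 19.9 FPKM in Calu-KO, against 27.5 and 26.0 FPKM in WT. Klc2 (ENSMUSG00000024862, chromosome 19), a second light chain, stood at 7.70 and 6.46 FPKM in Calu-KO, against 8.54 and 8.11 FPKM in WT. For both genes each Calu-KO library was lower than each WT library, by log2 changes of -0.28 ± 0.13 for Klc1 and -0.21 ± 0.13 for Klc2 (SE). Kif5b (ENSMUSG00000006740, chromosome 18), the heavy chain with motor activity that most tissues express, moved the other way, at 33.1 and 41.0 FPKM in Calu-KO against 27.7 and 29.7 FPKM in WT (log2 change 0.35 ± 0.14, SE). For Klc1, Klc2, Kif5b and Aplp2 the value of Calu-KO replicate 2, the library that stood apart, was farther from WT than that of replicate 1, and for App and Aplp1 it was nearer.

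The 4 light chain genes together summed to 35.1 and 28.9 FPKM in Calu-KO and 40.5 and 38.2 FPKM in WT. Klc1 held a nearly constant share of that sum, 67.8% and 68.8% in Calu-KO and 67.9% in each WT library. Kif5b made up 97.5% to 97.8% of the summed heavy chains in Calu-KO and 96.2% to 96.3% in WT, so the neuronal heavy chains Kif5a and Kif5c contributed little in these cells.

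**Figure D1:**
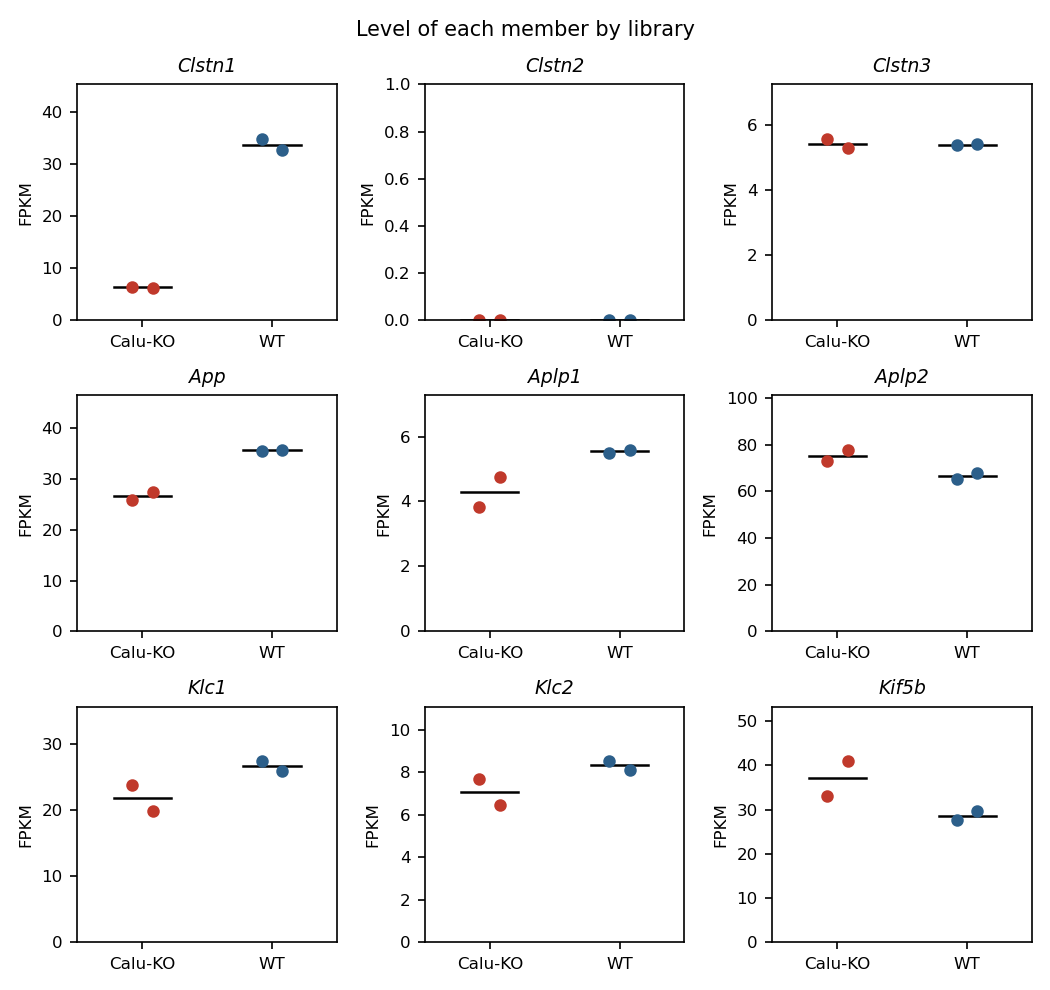
FPKM of each of the 9 genes in Calu-KO (left) and WT (right) libraries, with 1 point per library and a line at the group mean. Clstn1 lies near 6 FPKM in both Calu-KO libraries and above 32 FPKM in both WT libraries, Clstn3 overlaps between groups and Clstn2 is at 0 throughout.

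**Figure D2:**
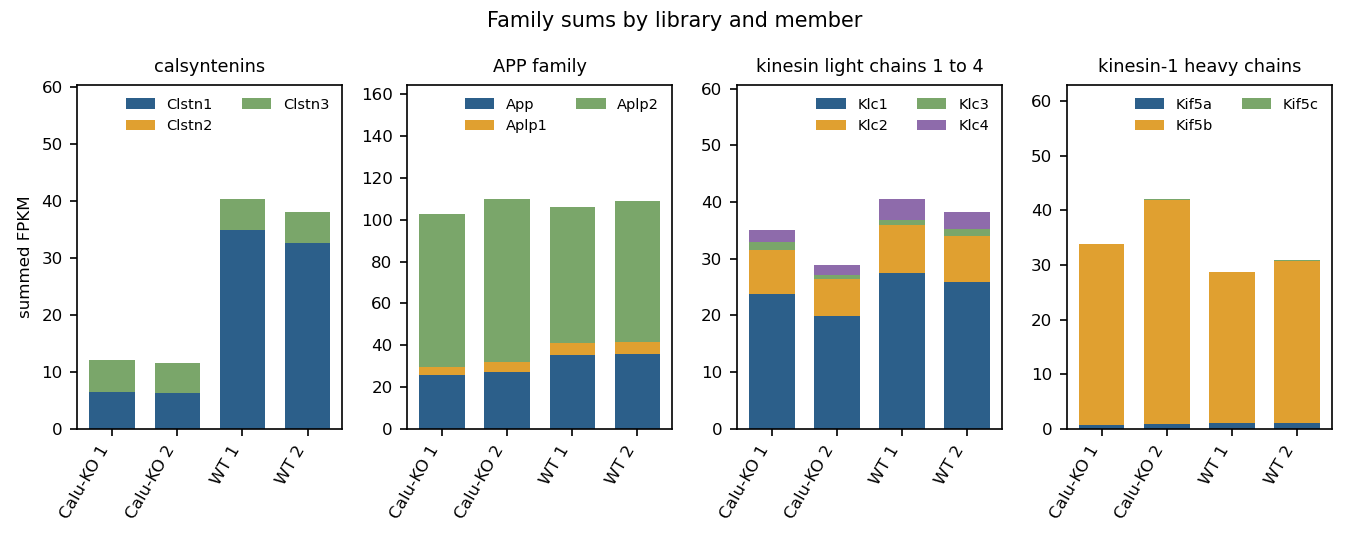
Summed FPKM of each family by library, with colours for its genes and the Calu-KO libraries left of the WT libraries. The calsyntenin sum is 12.0 and 11.6 FPKM in Calu-KO and 40.2 and 38.1 FPKM in WT, while the APP family sums, drawn like all others with the deposited gene lengths, overlap.

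Of the 9 genes, 8 entered the fit, which needed an average of 1 FPKM or more across libraries, and Clstn2 did not. In 7 of these 8 the Calu-KO and WT libraries did not overlap, 5 lower and 2 higher, which was also the case for 61.6% of all genes tested. In the fit across all genes, 1 of the 8 (Clstn1) had an adjusted p under 0.05 (limma, Benjamini-Hochberg), as had 2.77% of all genes tested in either direction, 0.942% as higher and 1.83% as lower, and 1 had a log2 change of -1 or less, as had 2.16%. The genes were chosen with this comparison known, so nothing is read from these counts. The median log2 change was -0.25 over the 8 genes and 0.01 over all genes tested.

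By level, Aplp2 stood first in both groups. In Calu-KO it was followed by Kif5b, App, Klc1, Klc2, Clstn1, Clstn3 and Aplp1, and in WT by App, Clstn1, Kif5b, Klc1, Klc2, Aplp1 and Clstn3, with Clstn2 last in both. Clstn1 thus had rank 6 in Calu-KO and rank 3 in WT. Klc2 and Clstn1 in Calu-KO, and Kif5b and Klc1 in WT, differed by less than the sum of their SDs. Aplp1 and Clstn3 in WT differed by 0.146 FPKM, less than the counting error of that difference (0.298 FPKM). The WT level of Aplp2 was at the 94.1st percentile of tested genes, that of App at the 87.5th and that of Clstn1 at the 86.6th.

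The order between genes depends on the length used. The deposited length of App is 12996 bases, whereas its principal transcript in GENCODE M21 has 3176 bases. All reads of the gene were kept in the rescaling, so any from outside that transcript raise the rescaled level. With principal transcript lengths App stood at 109 ± 4.48 FPKM in Calu-KO and 146 ± 0.496 FPKM in WT, and Aplp2 at 122 ± 5.51 and 108 ± 3.07 FPKM (SD, n = 2 each). App was then above Aplp2 in WT and below it in Calu-KO. The share of Clstn1 in the calsyntenin sum was then 56.6% and 57.5% in Calu-KO and 88.0% and 87.3% in WT.

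Changes across all genes were related to base composition, with Spearman's rho of -0.315 between GC content and log2 change (across genes, which are not independent replicates). The longest Clstn1 transcript has 57.6% GC, Klc2 60.4%, Aplp1 59.4%, App 46.1% and Kif5b 41.1%. With the trends on GC content and length removed, the log2 change was -2.11 for Clstn1 and -0.64 for App. It was -0.15 for Klc1, 0.10 for Aplp2, 0.12 for Clstn3, 0.11 for Kif5b, -0.09 for Aplp1 and -0.01 for Klc2. Rescaling by total reads gave log2 changes of 0.25 for Kif5b, 0.07 for Aplp2 and -0.08 for Clstn3, whose sign then turned. Values for Aplp1, Klc1, Klc2 and Kif5b also moved by over 1.5 times with a single library: without Calu-KO replicate 1 and without Calu-KO replicate 2 they were -0.19 and -0.44 for Aplp1, -0.41 and -0.16 for Klc1, -0.32 and -0.10 for Klc2 and 0.50 and 0.20 for Kif5b.

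The surroundings of Clstn1 on chromosome 4 were examined next. Among the 5 tested genes nearest on each side, a choice made after values were seen, 1 of 10 passed the threshold. This was Car6, which encodes a secreted carbonic anhydrase, 576 kb away between gene midpoints. Car6 stood at 28.7 and 29.9 FPKM in Calu-KO, against 148 and 150 FPKM in WT (log2 change -2.31 ± 0.10, SE; adjusted p = 0.00493, limma). The nearest tested gene on either side did not pass: Ctnnbip1, an inhibitor of beta-catenin, had a log2 change of 0.03 ± 0.11 (adjusted p = 0.896, limma), and Tmem201, a protein of the inner nuclear membrane, one of -0.24 ± 0.12 (adjusted p = 0.276, limma). Slc25a33, a mitochondrial nucleotide carrier that lies between Clstn1 and Car6, had a log2 change of -0.83 ± 0.16 (adjusted p = 0.0729, limma). H6pd, an enzyme of the endoplasmic reticulum lumen also between them, had a positive one, 0.21 ± 0.13 (adjusted p = 0.360, limma). The median over the 10 neighbours was -0.16, and over all 749 tested genes of chromosome 4 it was 0.09.

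**Figure D3:**
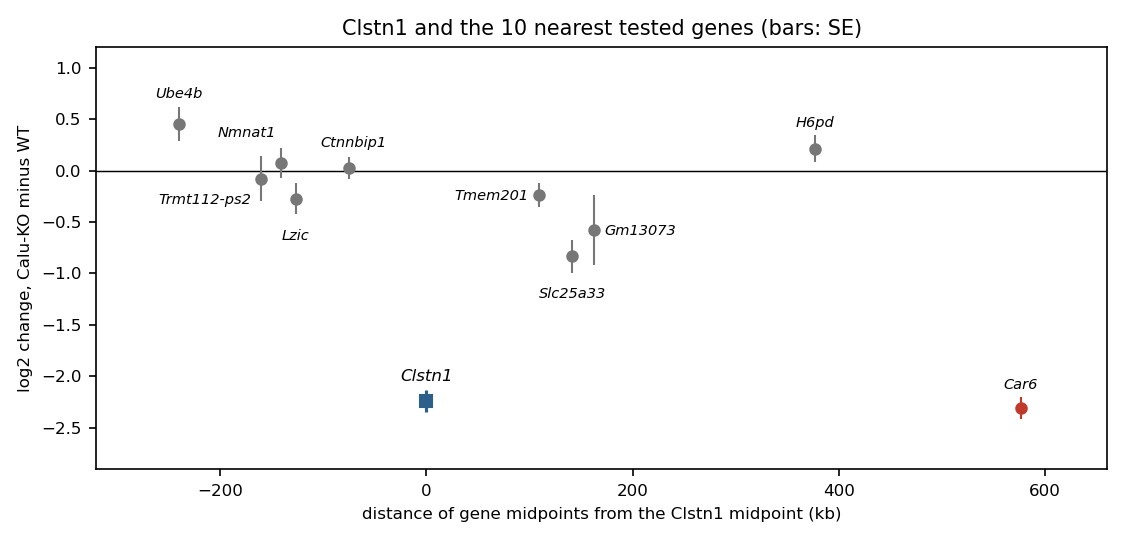
Log2 change (Calu-KO minus WT, vertical axis) of Clstn1 and its 10 nearest tested genes by distance in kb (horizontal axis), with bars for the SE, a square for Clstn1 and red for the gene past the threshold. Clstn1 at -2.24 and Car6 at -2.31 stand apart from the genes around them.

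For the other genes, the 10 nearest tested genes had median log2 changes of -0.19 around App, -0.30 around Aplp1, 0.27 around Aplp2, 0.15 around Clstn3, -0.03 around Klc1, -0.22 around Klc2 and 0.22 around Kif5b. Klc1 overlaps Xrcc3 on the opposite strand, and App overlaps the antisense gene Gm10791. Whether strand was used in counting is not stated, so reads of such pairs cannot be told apart. Xrcc3 had 251 and 185 reads in Calu-KO and 318 and 226 in WT, and Gm10791 had 15 and 11 reads in Calu-KO and 29 and 21 in WT, few beside those of Klc1 (1636 and 1185 in Calu-KO, 1831 and 1755 in WT) and App (5665 and 5190 in Calu-KO, 7560 and 7707 in WT). No gene of the table overlaps Clstn1.

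The 5 protein-coding genes whose pattern over the 4 libraries was most like that of Clstn1, by Euclidean distance of centred log2(FPKM + 1) among 10201 candidates, were Slc22a18 (distance 0.0315), Car6 (0.119), Hmga1 (0.170), Hmga1b (0.188) and Dmp1 (0.196). Slc22a18, an organic cation transporter gene, stood at 0.0696 and 0.0806 FPKM in Calu-KO and 4.17 and 3.93 FPKM in WT. Hmga1, a chromatin protein gene, stood at 7.65 and 6.28 FPKM in Calu-KO and 39.5 and 36.1 FPKM in WT. Hmga1 and Hmga1b may share reads as near-identical copies. With 4 libraries in 2 groups, likeness here says little beyond a similar difference between the groups on the log2(FPKM + 1) scale. That scale understates the change of low genes. In mean FPKM Slc22a18 was 54.0-fold lower in Calu-KO and Dmp1 9.18-fold, against 5.31-fold for Clstn1. Car6, Hmga1 and Hmga1b were 5.09-fold, 5.43-fold and 4.48-fold lower.

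Around the 9 genes, 8 lists of functionally related genes held 86 tested genes. Of these 0 were higher and 2 lower at an adjusted p under 0.05 (limma; 27 at an unadjusted p under 0.05). That is 2.33% against 2.77% of all genes tested, and 2944 of all 11885 genes tested had an unadjusted p under 0.05 (limma). The median log2 change was -0.04 in the lists against 0.01. Fits without a Calu-KO library take the spread from the WT pair alone and assume that the lone Calu-KO library varies like it. They called far more genes, in the lists and over all genes alike, so those calls are not read. Without WT replicate 1 or without WT replicate 2 neither call held, and there the spread comes from the Calu-KO pair.

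Of 9 tested genes listed under cytoplasmic adaptors of APP and calsyntenins, 0 rose and 1 fell. This was Apbb1ip, a partner of an adaptor: it links Rap1 signalling to integrins and carries the name of the APP adaptor Fe65 that it binds. It stood at 0.503 and 0.452 FPKM in Calu-KO, against 2.13 and 2.43 FPKM in WT (4.78-fold lower, log2 change -1.15 ± 0.17, SE; adjusted p = 0.0443, limma), and the call was lost without WT replicate 1 (adjusted p = 0.187) and without WT replicate 2 (adjusted p = 0.237). Among 18 genes of APP sorting, binding and amyloid-beta degradation, 0 rose and 1 fell. Itm2c, a membrane protein of the BRICHOS family that binds APP, stood at 17.9 and 16.3 FPKM in Calu-KO, against 33.4 and 30.6 FPKM in WT (1.87-fold lower, log2 change -0.87 ± 0.12, SE; adjusted p = 0.0391, limma). Its call was lost without WT replicate 1 (adjusted p = 0.386) and without WT replicate 2 (adjusted p = 0.274). Alternatives are given in the closing section. Over those that kept all libraries, adjusted p (limma) ran from 0.00586 with voom to 0.136 with no filter for Apbb1ip. For Itm2c it ran from 0.0131 with voom to 0.113 with no filter.

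Of the 4 tested alpha- and beta-secretase genes 0 passed the test in either direction. Adam17 was near the threshold, and it passed in some other fits and not in others. Adam17, a shedding protease, stood at 46.4 and 55.0 FPKM in Calu-KO, against 28.2 and 30.3 FPKM in WT (log2 change 0.77 ± 0.13, SE; adjusted p = 0.0575, limma). Over 13 alternatives its log2 change ran from 0.61 to 0.89. Its adjusted p (limma) was 0.0494 with the replicate block, 0.0392 with the GC and length trend removed, 0.0413 with both and 0.0248 with voom on recovered reads. It did not pass by total scaling (adjusted p = 0.0641, limma) or with no filter (adjusted p = 0.147, limma). Nor did it pass with a pseudocount of 0.1 (adjusted p = 0.0619, limma), at a mean of at least 5 FPKM (adjusted p = 0.0529, limma) or with a constant prior (adjusted p = 0.0709, limma). The same held with either WT library left out. Adam17 overlaps Iah1, which had 1057 and 775 reads in Calu-KO and 510 and 475 in WT, beside 5611 and 5745 reads of Adam17 in Calu-KO and 3303 and 3596 in WT. Adam17 lies at 21323509 to 21373632 on chromosome 12, where its 10 nearest tested genes had a median log2 change of 0.73 and 4 of them passed as higher. Bace1, the beta-secretase that makes the first cut toward amyloid-beta, stood at 15.9 and 19.3 FPKM in Calu-KO, against 13.2 and 13.0 FPKM in WT (adjusted p = 0.165, limma). Its log2 change of 0.39 was 0.52 without Calu-KO replicate 1 and 0.26 without Calu-KO replicate 2.

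Of 6 tested gamma-secretase genes 0 passed, and their median log2 change was -0.17. Psen2, a catalytic subunit, had a log2 change of -0.53 ± 0.15 (adjusted p = 0.136, limma). It was -0.63 without Calu-KO replicate 1 and -0.43 without Calu-KO replicate 2. Psenen, an accessory subunit, had a log2 change of -0.38 ± 0.25 (adjusted p = 0.387, limma), which rested on Calu-KO replicate 2. It was -0.01 without that library and -0.74 without Calu-KO replicate 1. With the GC and length trend removed it was -0.15.

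Of 15 tested cargo adaptors and activators of kinesin-1, 0 passed, 8 were positive and 7 negative, and the median log2 change was 0.15. Kidins220, a membrane scaffold of neurotrophin receptors carried by kinesin-1, stood at 30.9 and 43.3 FPKM in Calu-KO, against 20.6 and 19.6 FPKM in WT (log2 change 0.83 ± 0.18, SE; adjusted p = 0.0888, limma). Its log2 change ran over 13 alternatives from 0.60 without Calu-KO replicate 2 to 1.07 without Calu-KO replicate 1. Kidins220 passed with the GC and length trend removed and the replicate block (adjusted p = 0.0362, limma) and with voom (adjusted p = 0.0360, limma). It did not pass with the block alone (adjusted p = 0.0585, limma), the trend removal alone (adjusted p = 0.0545, limma) or total scaling (adjusted p = 0.0915, limma). With either WT library left out Kidins220 did not pass. It too lies on chromosome 12, at 24974925 to 25063152, where its 10 nearest tested genes had a median log2 change of 0.74. Syne2, the outer nuclear membrane linker nesprin-2 and also on chromosome 12, had a log2 change of 0.64 ± 0.28 (adjusted p = 0.229, limma). This was 0.24 without Calu-KO replicate 2, 1.04 without Calu-KO replicate 1 and 0.39 with the GC and length trend removed. Of the other kinesin-1 subunits, Klc4 stood at 2.14 and 1.79 FPKM in Calu-KO, against 3.65 and 2.96 FPKM in WT (adjusted p = 0.141, limma). The log2 change of Klc4, -0.54, was -0.27 with the GC and length trend removed. It was -0.62 without Calu-KO replicate 1 and -0.45 without Calu-KO replicate 2. Klc3 stood at 1.45 and 0.776 FPKM in Calu-KO, against 0.808 and 1.18 FPKM in WT, with overlapping groups.

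Of 10 tested plus-end transport kinesins 0 passed, with a median log2 change of 0.24. Kif3c and Kifap3, a motor and the cargo-binding subunit of kinesin-2, had log2 changes of 0.61 ± 0.16 (adjusted p = 0.119, limma) and 0.53 ± 0.14 (adjusted p = 0.119, limma). Without Calu-KO replicate 1 these were 0.75 for Kif3c and 0.67 for Kifap3, and without Calu-KO replicate 2 they were 0.46 and 0.38. Kif3c lies on chromosome 12 as well. Of 22 tested genes of dynein and dynactin, which move cargo in the opposite direction, 0 passed, with a median of -0.08. Bicd1, a dynein adaptor, had a log2 change of 0.50 ± 0.19 (adjusted p = 0.189, limma). It was 0.04 with the GC and length trend removed and 0.83 with voom (adjusted p = 0.0494, limma). Dctn6, a dynactin subunit, had a log2 change of -0.49 ± 0.15 (adjusted p = 0.147, limma). It was -0.62 without Calu-KO replicate 1 and -0.37 without Calu-KO replicate 2.

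**Figure D4:**
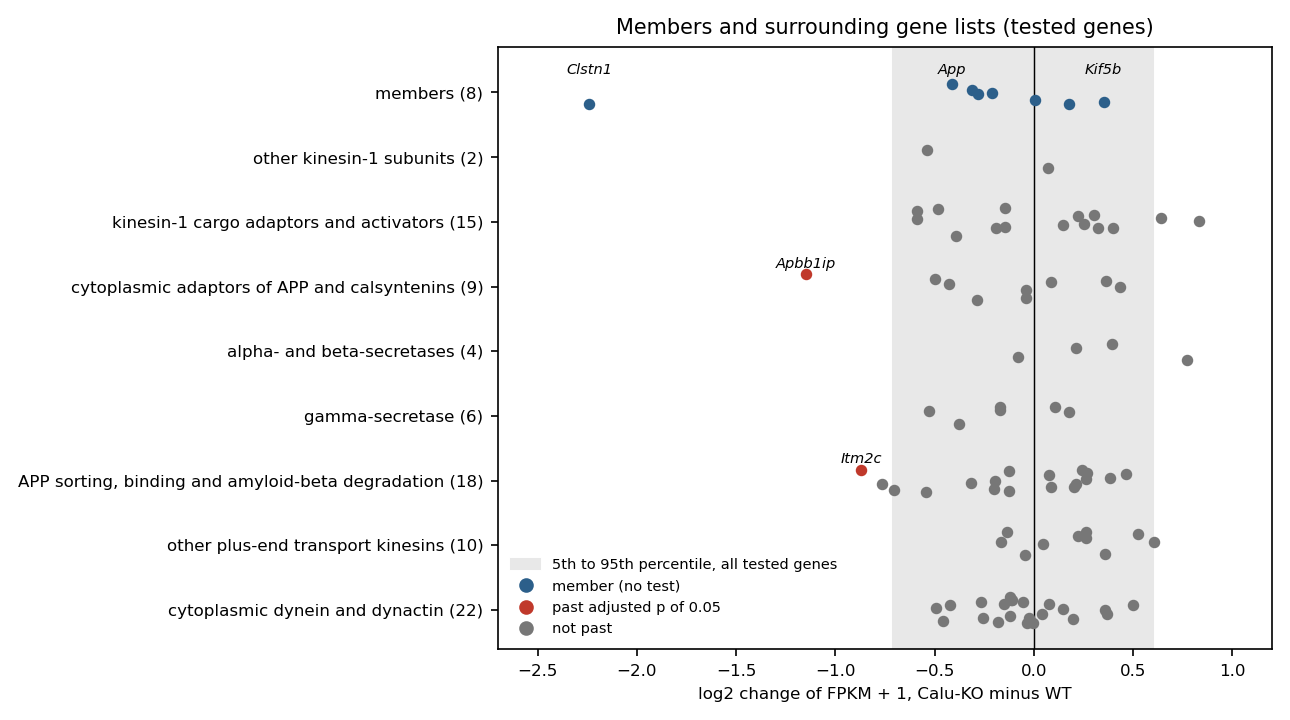
Log2 change (Calu-KO minus WT, horizontal axis) of tested genes, with the 8 tested calsyntenin, APP family and kinesin-1 genes in the top row and the related lists below, each point a gene and the number of genes in brackets. The grey band spans the 5th to 95th percentile of all genes tested (-0.71 to 0.60), and Clstn1 at -2.24, Apbb1ip at -1.15 and Itm2c at -0.87 lie below it with Lrp1 at -0.77, while Kidins220 at 0.83, Adam17 at 0.77, Syne2 at 0.64 and Kif3c at 0.61 lie above it. Of these list genes only Apbb1ip and Itm2c passed the threshold. The genes named above the band all lie on chromosome 12. Its 420 tested genes had a median log2 change of 0.13, and 39.0% of them were negative, against 49.7% on the other chromosomes. The part of this in their values was not tested.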

How the data were processed

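The authors deposited FPKM values of 54532 genes in a single table that also gives gene lengths and coordinates, with a column for each library. Alignment of the read pairs used HISAT2 2.0.5 per the labels' protocols, to mm10 per the submitters' processing notes. The counter, the annotation and any use of strand: not given in the sources used here. FPKM times length gave whole multiples of a step for 100% of values (tolerance 0.001 reads), so reads were recovered. The step is set by a library factor other than the read total. Floors and counting errors cover counting error only. Both replicate pairs differed by more than counting error (median chi-square per gene 9.23 for Calu-KO and 1.22 for WT), so each library was counted.

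Calu-KO and WT libraries were fitted across 11885 genes averaging 1 FPKM or more, on log2(FPKM + 1), with limma 3.58.1 (R 4.3.3; trend in the prior; two-sided). Adjustment was by Benjamini-Hochberg over all genes, with a threshold of 0.05. The fit was also run on simulated data with the same spread per gene in both groups. It therefore does not show how the fit behaves when the pairs differ in spread, as they do here. The 9 genes and the related lists (109 of 110 listed genes were in the table used here) were chosen with earlier results of these data known. Named from each list were up to 4 genes past the threshold with the greatest log2 change or, where none passed, the 2 tested genes with the greatest change. Lrp1 and the neighbouring and overlapping genes were named after values were seen. GC content came from the longest GENCODE M21 transcript (99.9% of tested genes), and promoters from RefSeq, found for 7 of the 9 genes. Alternatives were another pseudocount, filter, scaling, prior or model, each library left out, a replicate block, removal of GC and length trends, and principal transcript lengths.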

Additional observations from a re-analysis of the deposited data

How the results depend on the processing

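Over 13 alternatives the log2 change of Clstn1 ran from -2.41 to -2.11. Clstn3 changed sign, to -0.08 by total scaling and -0.03 without Calu-KO replicate 1, while the other 7 tested genes kept their sign. Aplp1 has no value at a mean of at least 5 FPKM. Over all genes 112 were higher and 217 lower (limma). Counts were 0 higher and 0 lower with no filter (3886 at an unadjusted p under 0.05), 45 higher by total scaling, 130 lower at a mean of at least 5 FPKM, and 361 higher and 469 lower with voom on recovered reads. Leaving out a library gave 8 to 2926 higher and 34 to 2805 lower. Of all calls, 22.8% were higher by total scaling, against 34.0%.

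In the related lists, 0 genes were higher and 2 lower. Higher counts were 1 with the GC and length trend removed and 3 with voom. Lower counts were 1 with a pseudocount of 0.1, 1 at 5 FPKM, 0 with no filter (limma; 32 at an unadjusted p under 0.05), 0 by total scaling (limma; 25 at an unadjusted p under 0.05), 4 with the trend removed and 5 with voom. Leaving out a library gave 0 to 29 higher and 0 to 23 lower, and moved the log2 change of Klc3 to between -0.16 and 0.30, with -0.06 without WT replicate 1. Without Calu-KO replicate 2 that of Psenen was -0.01 and that of Syne2 0.24. Apbb1ip lost its call with a pseudocount of 0.1 (adjusted p = 0.0568, limma), and it and Itm2c lost theirs with no filter (0.136 and 0.113) and by total scaling (0.0549 and 0.0616).

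With the replicate block, 181 genes were higher over all genes and 1 in the lists. Removing the GC and length trend gave 192 higher over all genes, and with the replicate block as well 319 higher and 447 lower, with 2 higher and 5 lower in the lists. Libraries of the same number did not deviate together (correlation of deviations 0.0153), and nothing in the labels ties them. Whether they share more than a number is not known. Principal transcript lengths moved the rank of 2 genes in Calu-KO and 4 in WT. Where a count or call changed, the cause was not tested. Read depth limits Clstn2, with no reads, and genes with few, such as Klc3, Klc4, Apbb1ip and Aplp1. Apbb1ip, a called gene, had 63 and 49 reads in Calu-KO and 259 and 299 in WT. Among the markers, Krt8 had 2 reads in each Calu-KO library and 88 and 74 in WT. Lyz2 had 38 and 24 reads in Calu-KO and 142 and 158 in WT.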

Other observations

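Ratios of FPKM within a library set pairs of these genes side by side. Clstn1 stood at 0.269 and 0.316 of the Klc1 level in Calu-KO, against 1.27 and 1.26 in WT, below its light chain partner in both Calu-KO libraries and above it in both WT libraries. App stood at 0.354 and 0.352 of the Aplp2 level in Calu-KO, against 0.545 and 0.526 in WT. Klc1 stood at 0.719 and 0.486 of the Kif5b level in Calu-KO, against 0.993 and 0.875 in WT. These ratios come from the values known when the genes were chosen and carry no test. Their size rests on the deposited gene lengths, which cancel in a comparison of Calu-KO with WT.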
